A study of Drosophila melanogaster with 2 samples.

Results

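Intergenic binding sites of Senseless-2 were taken from the list of peaks that chromatin immunoprecipitation and sequencing (ChIP-seq) gave across 2 biological replicates. A site was kept when its peak summit lay outside every annotated gene body and more than 500 bp from every transcript start of the dm6 genome. Of 2883 summits, 450 met these criteria, which was 15.6% (95% exact interval 14.3 to 17.0%). The remainder were 1275 promoter summits, within 500 bp of a transcript start, and 1158 gene-body summits. The assay used whole Drosophila melanogaster embryos collected between 0 and 24 h that carried sens-2 fused to eGFP, and chromatin of sonicated fragments of 200 to 800 bp was precipitated with an antibody against GFP. Both replicates belonged to this 1 group, and no other genotype, age or input library was analysed here. The labels describe an insertion targeting sens-2, and they name neither the promoter nor the number of sens-2 copies. Their antibody entry reads sens-2 for both replicates. Cells of every embryonic tissue and stage were pooled, so the cells in which a site was bound are unknown.

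Senseless-2 binds DNA through zinc fingers and is closely related to Senseless, a transcription factor that acts in sensory organ precursors of the fly. In the compact fly genome, sequence between genes holds many of the enhancers of developmental regulators, often several per gene and at a distance from the start. The core of the binding site known for Senseless reads AAATCA, which is also the site core of the vertebrate homologs of the Gfi family.

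The sequences below show the 4 strongest intergenic sites on 2L, 3L, 3R and X and the 4 strongest there that held AAATCA within 50 bp of the summit, with 1 site in both sets. Each covers 151 bp centred on the summit, from Release 6 of the genome, whose coordinates are those of dm6, and is named by the protein-coding genes on its left and right. Capitals mark AAATCA and 2 further hexamers that were more frequent at intergenic summits than beside them, TACTAA and ACACTG, each on either strand. Hexamers were tested only within 50 bp of the summit, and the windows reach farther. The marks of COX7AL2 / CG31668 and C15 / sp3 and the last mark of slp1 / slp2 lie outside that tested stretch. The signal is the authors' own value per peak on the scale of this list.
COX7AL2 / CG31668 (chr2L:2202347-2202497, + strand, signal 543): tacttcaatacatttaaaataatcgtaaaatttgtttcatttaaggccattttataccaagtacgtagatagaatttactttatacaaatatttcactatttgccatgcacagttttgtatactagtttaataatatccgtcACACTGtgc
mtSSB / tara (chr3R:16222416-16222566, + strand, signal 526): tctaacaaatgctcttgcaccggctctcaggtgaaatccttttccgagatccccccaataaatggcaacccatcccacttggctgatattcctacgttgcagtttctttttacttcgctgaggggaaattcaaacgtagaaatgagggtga
C15 / sp3 (chr3R:21520277-21520427, + strand, signal 467): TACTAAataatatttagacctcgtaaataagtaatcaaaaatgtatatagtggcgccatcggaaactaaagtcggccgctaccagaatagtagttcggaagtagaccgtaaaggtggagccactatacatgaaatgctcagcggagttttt
CG44362 / CG7560 (chr3L:11418371-11418521, + strand, signal 339): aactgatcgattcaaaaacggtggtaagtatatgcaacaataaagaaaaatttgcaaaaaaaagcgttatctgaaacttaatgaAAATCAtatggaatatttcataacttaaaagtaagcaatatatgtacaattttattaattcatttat
CG43131 / RabGGTa (chr3R:5113215-5113365, + strand, signal 293): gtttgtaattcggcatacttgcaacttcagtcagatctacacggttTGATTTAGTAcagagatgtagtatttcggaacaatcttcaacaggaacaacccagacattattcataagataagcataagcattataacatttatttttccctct
slp1 / slp2 (chr2L:3832442-3832592, + strand, signal 215): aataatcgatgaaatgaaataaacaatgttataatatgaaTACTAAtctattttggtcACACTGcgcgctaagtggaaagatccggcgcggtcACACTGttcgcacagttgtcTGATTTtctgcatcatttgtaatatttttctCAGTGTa
CG12643 / alpha-Man-Ia (chrX:10265813-10265963, + strand, signal 194): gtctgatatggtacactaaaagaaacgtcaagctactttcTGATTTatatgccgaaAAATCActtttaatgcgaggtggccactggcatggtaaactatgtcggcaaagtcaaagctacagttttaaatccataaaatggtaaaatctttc
These windows differ from each other in composition, with 23.2% G and C for CG44362 / CG7560 and 45.7% for mtSSB / tara. The 3 strongest sites shown hold no AAATCA. The slp1 / slp2 window holds 1 AAATCA and 4 copies of the other marked hexamers, the last of them more than 50 bp from the summit. CG12643 / alpha-Man-Ia holds 2 copies of AAATCA.

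Intergenic summits had a lower median signal than promoter and gene-body summits, and the difference from gene-body summits depended on the processing. Their median signal was 71.6 (quartiles 57.6 and 103, range 3.32 to 686), against 84.6 for promoter summits and 77.6 for gene-body summits. Of the 450 intergenic summits, 186 (41.3%) exceeded the median of the whole list, against 54.9% of promoter summits, a difference of -13.6 percentage points (two-sided Fisher's exact test, adjusted p = 2.30e-06). Against gene-body summits, of which 47.9% exceeded that median, the difference was -6.59 percentage points (Fisher's exact test, adjusted p = 0.0288). P-values were adjusted over the 6 class comparisons of signal, replicate support and AAATCA. In each alternative they were adjusted over those of the 6 that were run there. These p-values count peaks of 1 list, neighbouring peaks are not independent, and no test over samples was possible with 2 replicates of 1 group. In replicate 1's own thresholded list the difference from gene-body summits was -2.22 percentage points (adjusted p = 0.724, Fisher's exact test), and in that of replicate 2 it was 2.39 points, the opposite direction (adjusted p = 0.641, Fisher's exact test). Among summits above the median of the list, split again at their own median, it was 6.04 points, also opposite (Fisher's exact test, adjusted p = 0.485). It also missed the threshold with protein-coding genes only, at -5.17 points (Fisher's exact test, adjusted p = 0.0989), and without peaks that overlap a stronger one, an alternative added after seeing the data, at -5.18 points (Fisher's exact test, adjusted p = 0.104). The difference from promoter summits had the same direction in both replicates' lists, but in replicate 2's own list it was -1.88 points (Fisher's exact test, adjusted p = 0.641). Among summits above the median of the list, that from promoter summits was -6.93 points (Fisher's exact test, adjusted p = 0.485).

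**Figure D1:**
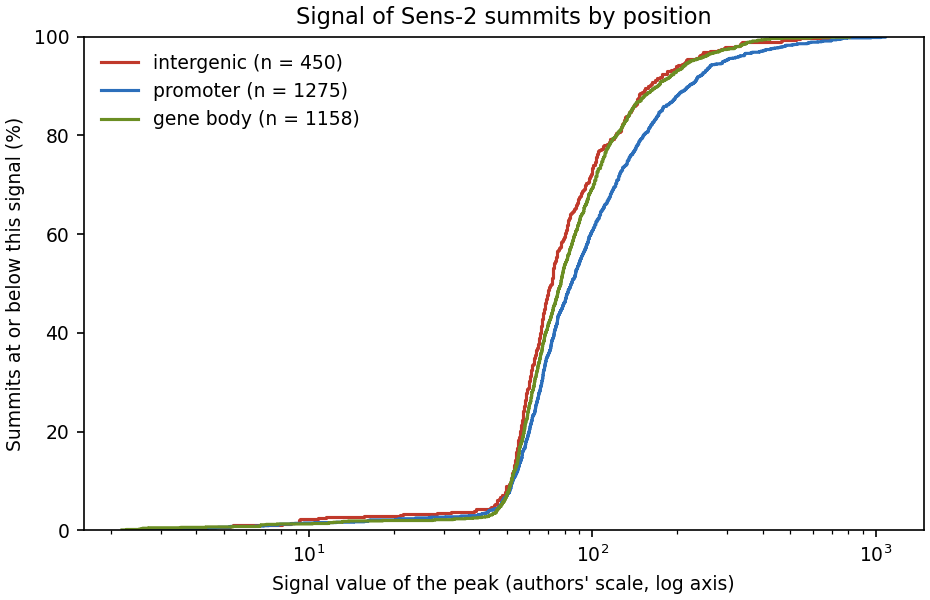
Cumulative share of summits (percent) against the signal of the peak (authors' scale, log axis) for intergenic, promoter and gene-body summits. The intergenic curve lies left of the promoter curve over most of the range, with medians of 71.6 and 84.6, and close to that of gene-body summits, whose median was 77.6.

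Nearly every intergenic site overlapped a candidate peak of both replicates, whose alignments the list was made from, and fewer overlapped a thresholded peak of both. The ranked lists hold the candidate peaks of a replicate, 117153 in replicate 1 and 93828 in replicate 2. They overlapped 447 of the 450 sites (99.3%) in replicate 1 and 447 in replicate 2. Of all 2883 summits they overlapped 99.4% and 99.5%. The thresholded list of replicate 1 overlapped 243 sites (54.0%), against 59.8% of all 2883 summits. That of replicate 2 overlapped 186 (41.3%), against 50.6% of all summits. Both thresholded lists overlapped 144 sites (32.0%, interval 27.7 to 36.5%), against 40.5% of all summits. A further 141 sites (31.3%) were in the list of 1 replicate and 165 (36.7%) in neither, against 29.4% and 30.1% of all summits. The difference from promoter summits, of which 45.3% were in both lists, was -13.3 percentage points (Fisher's exact test, adjusted p = 2.30e-06). From gene-body summits, with 38.6%, it was -6.60 points (Fisher's exact test, adjusted p = 0.0288). That from gene-body summits missed the threshold with the list of replicate 1 alone, at -4.03 points (Fisher's exact test, adjusted p = 0.145), and with protein-coding genes only, at -4.56 points (Fisher's exact test, adjusted p = 0.104).

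Signal moved with this share. Among summits above the median signal of the list, 73.1% of intergenic, 77.4% of promoter and 75.7% of gene-body sites were in both thresholded lists, and below it 3.03%, 6.26% and 4.48% were. Neither above nor below that median did the differences pass Fisher's exact test, with adjusted p = 0.485 and 0.574 above the median and 0.131 and 0.355 below it for the comparisons with promoter and gene-body summits. Median signal of the 450 sites was 42.9 in replicate 1 and 30.2 in replicate 2, each on the scale of its own ranked list. Spearman's rho between the replicates was 0.576 over the 444 intergenic sites with a value in both, given as a description since the sites come from the same 2 libraries.

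**Figure D2:**
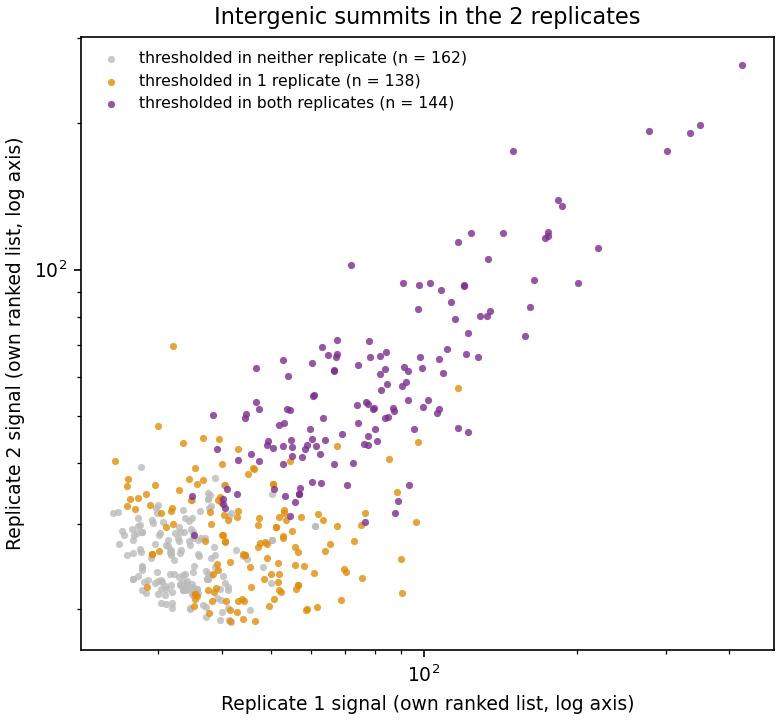
Signal of each intergenic site in replicate 2 against replicate 1, each from that replicate's own ranked list (log axes), for the 444 sites with a value in both. Colours give the number of replicates in whose thresholded list the site was found; the sites found in both lie towards high signal in both.

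All 15 strongest intergenic sites were in both thresholded lists, as were 76.2% of all summits above the median signal. Those lists and the ranking by signal come from the same replicates, so this is not independent support. The strongest had a signal of 686, with 424 in replicate 1 and 264 in replicate 2. It lay on 2R at chr2R:13035227-13035432, 27430 bp from Su(z)2 (FBgn0265623), a Polycomb group gene, and 9354 bp from CG13323, and its nearest transcript start was 11915 bp away. A site of signal 318 (replicate 1 184, replicate 2 139) lay 7800 bp from Psc (FBgn0005624), the paralog of Su(z)2 and a subunit of Polycomb repressive complex 1, on the side of CG13321. RYBP (FBgn0034763), whose mammalian homolog is also a subunit of Polycomb complexes, and Ppa, an F-box protein gene, flanked a site of signal 295 (200.87 in replicate 1, 94.0 in replicate 2). The Psc site, at chr2R:12958116-12958279, and the Su(z)2 site lie in the same region of 2R, with both genes between them. These 3 sites were picked out after their values were seen, and they are not a tested group.

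The second strongest site, of signal 543 (350.3 in replicate 1, 198 in replicate 2), lay 1299 bp from CG31668 and 4510 bp from COX7AL2 (FBgn0085201), which encodes a cytochrome c oxidase subunit homolog. A site of signal 464 (278 in replicate 1, 193 in replicate 2) lay 777 bp from blw, which encodes the alpha subunit of ATP synthase, and 564 bp from CycB (FBgn0000405), which encodes cyclin B. Both of these genes end towards the site, and its nearest transcript start was 3346 bp away. Sol1 and Cyp9f2, a cytochrome P450 gene, likewise converged on a site of signal 285 (176 in replicate 1, 119.7 in replicate 2), at 220 and 218 bp from it.

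A site of signal 526 (335 in replicate 1, 191 in replicate 2) lay between 2 lncRNA genes, with mtSSB, encoding the mitochondrial single-stranded DNA-binding protein, at 17241 bp and tara (FBgn0040071), a regulator of cell fate and proliferation, at 3160 bp. The site of signal 467 (302 in replicate 1, 175 in replicate 2) lay 576 bp from sp3 and 7538 bp from the homeobox gene C15 (FBgn0004863). RasGAP1, encoding a GTPase-activating protein for Ras, lay 667 bp from a site of signal 335 (187 in replicate 1, 135 in replicate 2), with CG10809 on its other side. The site of signal 332 beside jp, which encodes junctophilin, was the only one of the 15 with a higher value in replicate 2 (175) than in replicate 1 (150.1), and brwl was its other protein-coding neighbour. The remaining members of the 15 lay between CG44362 and CG7560 (2 sites, 339 and 247), CG43131 and RabGGTa (293), Ids and sty (279), and CG13896 and hng3 (261). Of the 15, 4 had an lncRNA gene as the nearest start, 4 lay on 2R and 2 held AAATCA. Mean GC content within 50 bp of their summits was 33.5% (21.8 to 50.5%). In the ranking of the whole list, 9 intergenic sites were among the strongest 100, against a share of 15.6% of the whole list.

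Sites were densest close to transcript starts although promoters had been left out. Sequence that met the criteria covered 39.3 Mb, 28.6% of the chromosomes used, and held 11.4 sites per Mb (Poisson interval 10.4 to 12.6), against 70.9 per Mb for promoter windows and 14.4 per Mb for gene bodies. Between 500 and 1000 bp from the nearest start there were 82 sites, or 29.0 per Mb (23.0 to 35.9), and between 1000 and 2000 bp there were 93, or 20.2 per Mb (16.3 to 24.8). The density was 14.1 per Mb (11.8 to 16.8, 128 sites) at 2000 to 5000 bp, 11.7 (9.39 to 14.5, 86 sites) at 5000 to 10000 bp and 9.90 (7.37 to 13, 51 sites) at 10000 to 20000 bp. Beyond that, 10 sites lay at 20000 to 50000 bp, 2.49 per Mb (1.19 to 4.57), and none in the 6.32 Mb more than 50000 bp from any start, which allows up to 0.584 per Mb. These intervals cover counting of sites only and treat neighbouring sites as independent. Of the 10 sites at 20000 to 50000 bp, 5 belong to 1 cluster, between NijA and CG43245.

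**Figure D3:**
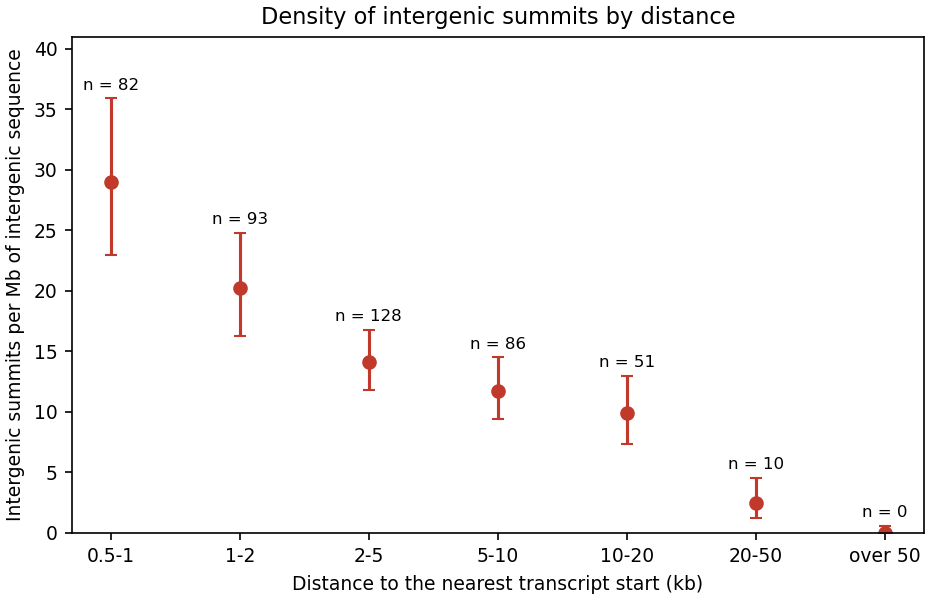
Intergenic summits per Mb of intergenic sequence (points, with 95% Poisson intervals) by distance to the nearest transcript start in kb, with the number of sites above each. The density was 29.0 per Mb in the nearest class, 2.49 per Mb at 20 to 50 kb and 0 beyond 50 kb.

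Repeats account for a growing part of the sequence far from starts: 79.3% of the bases in the nearest class and 49.1% of those beyond 50000 bp were not soft-masked in the reference. Over unmasked bases alone, an alternative chosen after seeing the data, density was 29.4 per Mb at 500 to 1000 bp, 11.6 per Mb at 10000 to 20000 bp, 2.44 per Mb at 20000 to 50000 bp and 0 beyond. The median distance was 2884 bp (quartiles 1278 and 6570.0 bp), with 175 sites (38.9%) within 2000 bp and 61 (13.6%) beyond 10000 bp. Signal varied little with distance: the medians of the 6 filled classes lay between 63.5 and 73.2, and Spearman's rho was -0.0116 over the 450 sites. The nearest start belonged to a protein-coding gene for 296 sites, to an lncRNA or other non-coding RNA gene for 141 and to a tRNA gene for 13. Just inside the limit of the criteria, 24 sites lay less than 600 bp from a start, with a median signal of 67.2. Just outside it, 28 summits outside gene bodies lay over 400 and up to 500 bp from a start, with a median of 72.2.

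The 5 farthest sites all lay on 3L, 4 of them between NijA and CG43245 and 1 beside vvl. Between NijA and CG43245 there were 5 sites in a cluster, with NijA, a ninjurin cell-surface protein gene, at 37854 to 43026 bp and the start of CG43245, the nearest, at 32022 to 37194 bp. Their signals were 62.6, 144, 55.4, 21.5 and 65.3. The strongest of them had 78.3 in replicate 1 and 66.1 in replicate 2. The peaks of 55.4 and 21.5 overlap each other and matched the same peak in each replicate. The site beside vvl, the third farthest, of signal 105 (51.9 in replicate 1, 48.0 in replicate 2), lay 33901 bp from the start of vvl, a POU-homeobox gene of neural and tracheal development.

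The sites occupied 329 of the 6527 intergenic gaps (5.04%), and these were long, with a median of 8823 bp against 1566 bp for gaps with no site. Of the occupied gaps, 250 held 1 site, 49 held 2 and 30 held 3 or more, with 7 at most. Gaps between divergent genes, in which both neighbours start, held 121 sites or 16.0 per Mb (13.3 to 19.1). Tandem gaps held 224 sites, 11.1 per Mb (9.67 to 12.6), and convergent gaps, in which both neighbours end, held 105, 10.4 per Mb (8.54 to 12.6). Median signal was 68.8, 72.4 and 73.0 in divergent, tandem and convergent gaps. In the same order, the median distance of the sites to the nearest start was 1807, 2617 and 4837 bp. The shares of sites in both thresholded lists were 26.4%, 32.1% and 38.1%. Whether the density of these gaps differed at equal distance from a start was not tested. The nearer gene faced the site with its 5' end in 222 cases (13 per Mb, 11.4 to 14.9) and with its 3' end in 228 (11.0 per Mb, 9.59 to 12.5), intervals that overlap. Both flanking genes were protein-coding at 199 sites, and an ncRNA gene stood on either side of 233. A tRNA gene flanked 20 sites, of which 3 lay within 1000 bp of it, with signals of 56.7, 59.7 and 78.3.

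Chromosome arms differed in density. On 2L there were 122 sites, 18 per Mb of intergenic sequence (15 to 21.5), and on 3L 133, 14.6 per Mb (12.2 to 17.3). There were 92 on 3R, 11.9 per Mb (9.62 to 14.6), 63 on 2R, 8.41 per Mb (6.46 to 10.8), and 40 on X, 7.44 per Mb (5.31 to 10.1). Intergenic sites made up 8.03% of the 498 summits on X and 12.3% of the 513 on 2R, against 21.2% of the 626 on 3L and 20.7% of the 588 on 2L. Summits at promoters and in gene bodies showed a narrower range, 25.2 per Mb of other sequence on X and 23.2 to 27.8 per Mb on the 4 autosome arms. Chromosome 4 held no summit of any class and Y held 1, which was not intergenic. The absence of intergenic sites allows up to 13.7 per Mb on 4 and 1.43 per Mb on Y. These differences were seen before they were described and were not tested.

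Of the 450 sites, 157 (34.9%) lay within 5 kb of another intergenic site. They formed 64 clusters, of which 42 held 2 sites, 18 held 3, 2 held 4, 1 held 5 and 1 held 6. Median signal was 72.5 for clustered and 70.9 for single sites. With summits at promoters and in gene bodies counted too, 196 sites (43.6%) had another summit within 5 kb. The same share was not computed for all summits. Keeping only the strongest summit per 10 kb left 1851 of all 2883 summits and 287 of the 450 intergenic sites. Some neighbouring peaks overlap: 33 of the 450 peaks overlapped another peak of the list, and all 13 sites of signal under 20 were among these. Without peaks that overlap a stronger one, an alternative chosen after seeing the data, 433 sites remained and 30.3% of them were clustered. In the replicates' own lists, which held 290 intergenic sites in replicate 1 and 208 in replicate 2, the share was 29.3% and 21.6%.

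The largest cluster had 6 sites over 6977 bp between CG44362 and CG7560 on 3L. From left to right, signals were 138, 247, 50.7, 103, 339 and 71.4, and the nearest start, of CG7560, was 9634 bp from the first and 2658 bp from the last. The peaks of 50.7 and 103 overlap each other. The strongest of these sites had 220.5 in replicate 1 and 111 in replicate 2. The 5 sites next to NijA followed, over 5173 bp. The nearest start to a cluster of 4 within 1592 bp was that of lncRNA:CR45737, at 571 to 2162 bp. Its protein-coding neighbours were Ids, the iduronate 2-sulfatase gene, at 14576 to 16167 bp, and sty at 4903 to 6494 bp. The gene sty encodes the receptor tyrosine kinase antagonist Sprouty. The signals of this cluster were 139.6, 279, 131 and 142, so that all 4 exceeded the median of the list. Its strongest site had 176 in replicate 1 and 117 in replicate 2. Another 4 sites lay within 4814 bp, at 6610 to 11423 bp from the zinc finger gene noc, with signals of 60.9, 166, 98.2 and 31.8. The last 2 of these peaks overlap each other and matched the same peak in each replicate.

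The gene of the assayed factor had sites of its own on both sides. Upstream of sens-2 (FBgn0051632), 3 sites lay 4240, 3442 and 2074 bp from its start with signals of 144, 80.4 and 244. The strongest had 117 in replicate 1 and 114 in replicate 2. On the other side, towards Rca1, an inhibitor of the anaphase-promoting complex, a site 2576 bp from the gene body had a signal of 241 (162 in replicate 1, 83.7 in replicate 2). In all, sens-2 was the protein-coding neighbour of 5 sites. The labels do not say how much sequence beside sens-2 the tagged construct carries, and its part in these values was not tested. The protein-coding genes that bordered most sites were CG13898 with 11, hng3 and noc with 10 each, and CheA75a and CG43245 with 9 each. chinmo, a regulator of neuronal temporal identity, bordered 7, with a strongest signal of 198.

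**Figure D4:**
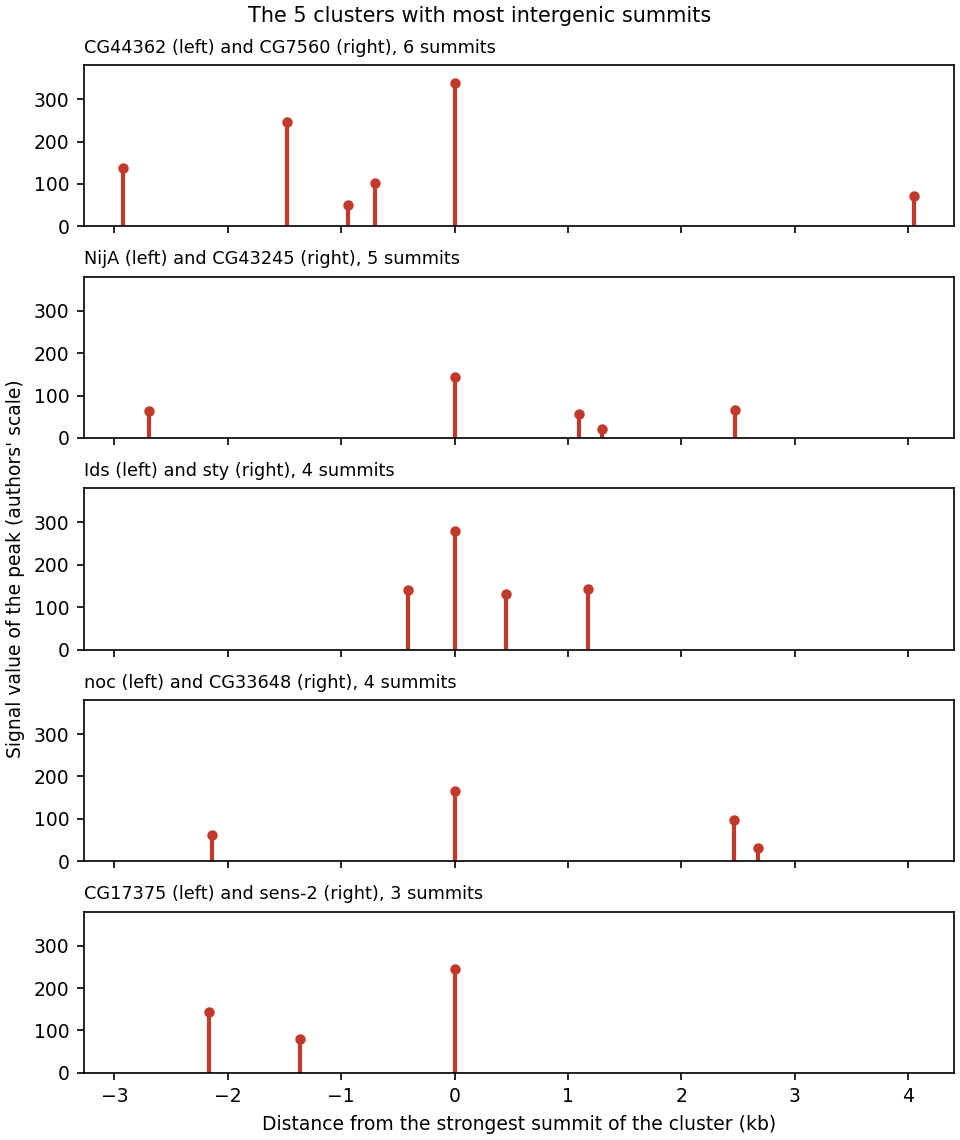
Signal (authors' scale) of each site in the 5 clusters with most intergenic sites (the fifth being that of highest summed signal among 18 with 3 sites), by distance in kb from the strongest site of the cluster. The sites between Ids and sty lie within 1592 bp, while those between CG44362 and CG7560 span 6977 bp, and the height of the peaks varies within each cluster.

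Lists of developmental regulators had higher shares of genes beside a site than all protein-coding genes, and these shares were not tested. The lists were chosen with earlier results of these data known, and that of zinc finger and other regulators holds sens-2 itself. Each site was assigned to the nearest protein-coding gene on its left and on its right, which gave 554 of 13968 protein-coding genes (3.97%, interval 3.65 to 4.30%). Of 59 homeobox genes 15 bordered a site (25.4%, 15 to 38.4%). Of 62 zinc finger and other regulator genes 22 did (35.5%, 23.7 to 48.7%), and of 41 signalling ligand genes 10 did (24.4%, 12.4 to 40.3%). The share was 10.8% for bHLH genes (4 of 37, 3.03 to 25.4%) and 10.6% for axon guidance and adhesion genes (5 of 47, 3.55 to 23.1%). Both of these intervals include the share of all genes. For synaptic and channel genes it was 11.8% (6 of 51, 4.44 to 23.9%). Signalling receptor and pathway genes (2 of 45, 4.44%), chemosensory receptor genes (6 of 179, 3.35%), cuticle protein genes (3 of 111, 2.70%) and cytosolic ribosomal protein genes (1 of 92, 1.09%) had shares near or below that of all genes. Members of 1 list can share a site, and the 22 regulator genes bordered 35 sites, the 15 homeobox genes 26 and the 10 ligand genes 8.

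Length of the flanking intergenic sequence moved with these shares. Its median was 22022 bp for the zinc finger and other regulators, 17274 bp for homeobox genes and 11009 bp for ligand genes, against 711 bp for all protein-coding genes. Among genes with at least 50000 bp of flanking sequence, 8 of 12 homeobox genes and 9 of 13 regulators bordered a site, against 85 of all 298 (28.5%). Between 20000 and 50000 bp, 5 of 14 homeobox genes and 12 of 20 regulators did, against 191 of all 815 (23.4%). Between 10000 and 20000 bp, 2 of 12 homeobox genes and 1 of 10 regulators did, against 89 of all 828 (10.7%). At 5000 to 10000 bp, none of 11 homeobox genes and none of 7 regulators did, against 8.05% of all genes, and at 2000 to 5000 bp none of 6 and none of 4, against 5.25%. Axon guidance and adhesion genes had a median of 15131 bp. In the own lists of replicates 1 and 2, the genes with a site were 14 and 8 of the homeobox list, 13 and 10 of the regulator list and 7 and 2 of the ligand list. No test was made of the lists.

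Homeobox neighbours included Hox genes and genes of head, muscle and nerve patterning. The list does not hold C15, whose site of signal 467 is given above. Within the list, the strongest site had a signal of 214 (120.0 in replicate 1, 93.0 in replicate 2) and lay 8336 bp from abd-A (FBgn0000014), a Hox gene of the abdomen. Its other protein-coding neighbour, Glut3, lay 8857 bp away, and its nearest start, of lncRNA:CR45750, 1722 bp away. ems (FBgn0000576), a gap gene of the head, bordered 4 sites, the strongest with 115 (60.5 in replicate 1, 54.9 in replicate 2) at 10333 bp. A site of signal 105 (64.0 in replicate 1, 44.6 in replicate 2) lay 923 bp from Awh, a LIM-homeobox gene. Dfd and Scr, neighbours in the Antennapedia complex, shared 1 site of signal 72.8, and Ubx bordered 1 of 54.2. In the iroquois complex, caup and mirr shared 3 sites of 78.8, 67.2 and 9.23, and ara and caup shared 1 of 49.6. The summits of 78.8 and 9.23 lay within 200 bp, and the peak of 9.23 overlapped another peak of the list.

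Within the list of zinc finger and other regulators, which holds neither tara nor noc, sens-2 had the strongest site, given above. slp1 (FBgn0003430) and slp2 (FBgn0004567), forkhead genes of segmentation, shared the site printed above, of signal 215 (120.1 in replicate 1, 92.7 in replicate 2), 5418 bp from slp1 and 4323 bp from slp2. The T-box gene mid bordered 4 sites with a strongest signal of 207, and Doc1 and Doc2, T-box genes of the heart and amnioserosa, 3 sites each, of which they shared the strongest, of 177. drm bordered 4 sites (strongest 121) and SoxN, a neurectoderm regulator, 3 (strongest 129). The gap genes hb, tll and kni bordered 1 site each, of 86.5, 61.1 and 53.0, and pros, a regulator of neural differentiation, bordered 1 of 100.3.

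The 10 ligand genes bordered 8 sites, none of which exceeded the median of the list, against 41.3% of all intergenic sites above it: wg and Wnt4, both Wnt ligands, shared 1 of signal 62.1 (35.9 in replicate 1, 26.0 in replicate 2), upd1 and upd3, cytokine ligands, 1 of 60.2, and pyr and ths, FGF ligands, 1 of 57.8. dpp, a BMP ligand, bordered 1 of 58.6. The shared site of wg and Wnt4 lay 14975 bp from wg and 15013 bp from Wnt4. Of the 45 receptor and pathway genes, sty and ptc, the Hedgehog receptor, bordered sites, with strongest signals of 279 and 143 (67.6 in replicate 1 and 71.5 in replicate 2 for ptc). bHLH neighbours were Myc (FBgn0262656), a growth regulator, with 153 (81.9 in replicate 1, 66.3 in replicate 2) at 17802 bp, hry, a pair-rule repressor, with 3 sites up to 74.5, and 2 genes of the Enhancer of split complex. Those were E(spl)mbeta-HLH with 89.4 (39.5 in replicate 1, 44.9 in replicate 2) and E(spl)m3-HLH with 63.9. The strongest site beside hry lay 20537 bp from it.

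Synaptic, channel, guidance and adhesion genes bordered both strong and weak sites. The synaptic gene Rim (FBgn0053547) lay 2672 bp from a site of 184 (91.2 in replicate 1, 94.0 in replicate 2). That site was nearer to cpo, at 582 bp. ple, which encodes tyrosine hydroxylase of dopamine synthesis, lay 4186 bp from 1 of 174 (71.9 in replicate 1, 102 in replicate 2). Its nearer neighbour was CG8519, at 170 bp from the site. The guidance receptor genes unc-5 and robo2 bordered sites up to 102 and 91.7, and caps 3 sites up to 80.6. The strongest site beside caps lay 39205 bp from it, against 775 bp for unc-5 and 2486 bp for robo2. nAChRalpha7 and Ca-alpha1T bordered sites of 87.9 and 82.6. The strongest sites beside ppk (68.2), shg (66.8), Toll-6 (66.5) and Syt1 (48.0) were under the list median of 78.6. With only the nearer neighbour of each site, 3 synaptic and channel genes and 2 guidance and adhesion genes had a site. Among the lists with low shares, Cpr76Ba, a cuticle protein gene, bordered a site of 158 (93.2 in replicate 1, 61.9 in replicate 2), Gr89a, a gustatory receptor gene, 3 up to 115, and RpS15Aa 1 of 59.6. The peak of the weakest site beside Gr89a, of 3.32, overlapped another peak of the list, as did that of 4.38 beside robo2.

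**Figure D5:**
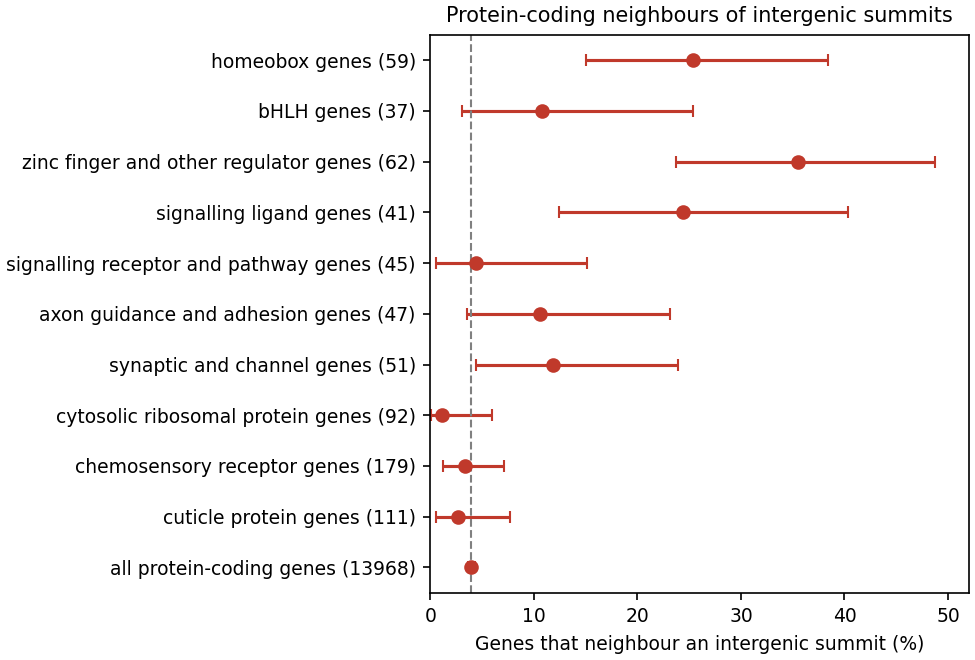
Percentage of genes of each list (number of genes in brackets) that are the nearest protein-coding gene on the left or right of an intergenic summit, with 95% exact intervals; the dashed line marks all protein-coding genes, 3.97%. Homeobox genes, zinc finger and other regulators and signalling ligands have the highest shares, at 25.4, 35.5 and 24.4%.

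The Senseless core AAATCA was found at more intergenic summits than flanks, by a difference that did not pass the test. It occurred on either strand within 50 bp of 73 summits (16.2%), against 17.9% of all 2883 summits. In windows of the same width 300 bp away it occurred at 53 of the same sites (11.8%), and 68 sites held it at the summit alone and 48 in the flank alone (exact McNemar test, p = 0.0773, adjusted p = 0.438 over 2080 hexamers). With the flank on the other side of each summit, the difference was 7.33 percentage points, against 4.44 here, and passed the exact McNemar test (adjusted p = 0.0455). Of the 29 other orders of the same 6 letters, 1 was called more frequent at summits. The ratio of summit to flank was 1.38 for AAATCA, and 12 of these 29 had a ratio at or above it.

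Promoter and gene-body summits held AAATCA at 18% and 18.6%. Among sites with the hexamer in only one of the windows, it was at the summit for 58.6% of intergenic, 65.1% of promoter and 67.1% of gene-body sites. The differences of -6.51 and -8.49 percentage points did not pass Fisher's exact test (adjusted p = 0.257 and 0.132), which does not show the classes to be alike. With the flank 1000 bp away the difference from promoter summits was -15.8 points (Fisher's exact test, adjusted p = 0.00814). With a promoter window of 1000 bp that from gene-body summits was -13.5 points (Fisher's exact test, adjusted p = 0.0413). Within 50 bp of the summits there were 19.3 AAATCA sites per 100 intergenic summits, against 20.4 at promoter and 21.8 at gene-body summits. In bins of 50 bp, intergenic values were 9.78 and 9.56 on the left and right of the summit and between 2.67 and 9.33 elsewhere within 500 bp. Median signal of the intergenic summits was 66.5 with AAATCA and 73.0 without it.

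Intergenic summits were poorer in G and C than their surroundings. GC content was 36.8 ± 9.52% at summits and 42.8 ± 9.93% in flanks (SD over 450 sites, not over samples), and it was lower at the summit for 302 of the 439 sites at which the windows differed (two-sided exact sign test, p = 2.34e-15). The other classes had like means, 37.5% at promoter summits with 43.0% in their flanks and 36.6% at gene-body summits with 42.8%. Of 2080 hexamers, 28 were more frequent at summits and 12 less frequent (exact McNemar test, adjusted p under 0.05). All 12 of the less frequent had 3 or more G or C, while of the 28, 9 had none and 9 had 1. The lowest p among the more frequent was that of TACTAA, at 35 summits and 8 flanks (exact McNemar test, adjusted p = 0.00515). It was found at 7.78% of the intergenic summits and 6.24% of all 2883. TTAAAA was found at 120 summits and 66 flanks (exact McNemar test, adjusted p = 0.00894), 26.7% of the intergenic summits and 27.3% of all 2883.

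Some called hexamers held G or C. CACTGA was at 49 summits and 17 flanks (exact McNemar test, adjusted p = 0.0150) and ACACTG at 38 and 11 (adjusted p = 0.0180). These hexamers overlap by 5 letters, and 22 summits held both. At the intergenic summits the shares were 10.9% for CACTGA and 8.44% for ACACTG, against 8.01% and 6.97% at all summits of the list. CAGCAG was at 19 summits and 58 flanks (exact McNemar test, adjusted p = 0.00515) and the overlapping GCAGCA at 21 and 62 (adjusted p = 0.00515). With the flank 1000 bp from the summit, no hexamer was called in either direction by the McNemar test (106 more and 105 less frequent at an unadjusted p under 0.05). In the own list of replicate 1, 23 were called more frequent and 9 less frequent, and in that of replicate 2, with 208 sites, none was called (74 more and 73 less frequent at an unadjusted p under 0.05). The Zelda hexamer CAGGTA was at 8 summits and 6 flanks, the homeodomain hexamer TAATTA at 36 of each, and the GATA factor hexamer GATAAG at 29 and 26, none of which passed the test.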

How the data were processed

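The labels describe ChIP-seq of 0 to 24 h embryos in 2 biological replicates, numbered by the labels. The deposited signal (column 7) and score (column 5) per peak are the authors' own values, and their lists on dm6 were made per replicate and across both replicates, per the labels and their text files. The software that aligned reads or called peaks is not given in the sources used here. Read depth is unknown, so intervals cover counting of sites only.

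Peaks on 7 chromosomes were used, which left out 16 on unplaced scaffolds. Genes (17947, of which 13968 protein-coding) came from the Ensembl annotation of BDGP 6.54, without transposable elements and pseudogenes. Peaks of 2 lists matched with an overlap of 1 bp. Motifs were counted within 50 bp of each summit and in a flank window of equal width 300 bp away, alternately on either side. Signal classes were split at the median of the list. Sites within 5 kb formed clusters. Exact binomial and Poisson intervals at 95%, Fisher's exact, exact McNemar and exact sign tests were computed with SciPy 1.17.1, with Benjamini-Hochberg adjustment, and the functions were tested on simulated data. Of the names in the 10 gene lists, 1 found no match. Named genes were the neighbours of the 15 strongest sites, the 5 clusters with most sites (ties by summed signal), the 5 farthest sites and up to 3 leading members of each list, and others named were chosen after their values were seen. Members, lists and motifs were chosen with earlier results of these data known. Alternatives were other lists, promoter windows, annotations, motif windows, flanks and linkage distances, 1 site per 10 kb, and each replicate's own list.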

Additional observations from a re-analysis of the deposited data

Results flagged for a closer look

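Peaks that the conservative list does not hold also fell in intergenic sequence. In the ranked list that compared both replicates, 74 peaks reached the score of 830 that every thresholded peak had, yet overlapped no peak of the conservative list, and 16 of them were intergenic by the same criteria. Their signals ranged between 47.9 and 283 with a median of 72.8, on the scale of that ranked list. In the other thresholded list, 102 intergenic sites overlapped no peak of the conservative list, with a median signal of 52.1 on the scale of that list.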

How the results depend on the processing

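The lower GC content at summits passed the sign test under all 14 alternatives tried. The replicates' own lists (without the other replicate) gave an intergenic share of 12.7 to 14.8%, a median distance of 2557 to 2740 bp, 21.6 to 29.3% of sites in clusters and 2.13 to 2.96% of protein-coding genes with a site. Above-median signal relative to promoter summits was -14.0 to -1.88 percentage points there and -2.22 to 2.39 relative to gene-body summits. AAATCA at summits minus flanks was 0 to 3.79 points, its share among discordant sites minus that of promoter summits -14.5 to 0.554 points and minus that of gene-body summits -15.3 to -4.50 points. Hexamers called were 0 to 23 more and 0 to 9 less frequent. With 1 replicate's list alone, the replicate share minus that of gene-body summits was -7.20 to -4.03 points.

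Among summits above the median signal of the list, 12.9% of summits were intergenic, 18.8% of sites were clustered, 2.05% of genes had a site, and 3 more frequent and 0 less frequent hexamers were called. The signal differences there were -6.93 points relative to promoter and 6.04 relative to gene-body summits, a reversal that did not pass Fisher's exact test (adjusted p = 0.485), and the replicate shares differed by -4.31 and -2.56 points. Below that median they differed by -3.23 and -1.45 points. A promoter window of 250 bp gave 18.6% intergenic, a median of 2082 bp, 4.85% of genes and 49 more frequent hexamers. A window of 1000 bp gave 12.8%, 3841 bp, 3.21%, 44 more frequent hexamers and an AAATCA difference of -13.5 points from gene-body summits that passed. With protein-coding genes only, these were 19.5%, 4583 bp and 4.65%, with 32.8% of sites in divergent gaps, 22 less frequent hexamers, and signal and replicate shares -5.17 and -4.56 points from gene-body summits, neither of which passed. The other thresholded list gave 41.3% clustered and 0.817 points for AAATCA relative to gene-body summits. Linkage of 2 kb and 10 kb gave 24.0% and 44.4% clustered, and the nearer neighbour alone gave 2.35% of genes. With 1 site per 10 kb, 12 more and 5 less frequent hexamers were called, with windows of 25 bp on either side 1 and 0, with 100 bp on either side 54 and 27, and with the flank at 1000 bp 0 and 0, where the AAATCA difference from promoter summits was -15.8 points and passed. With the flank on the other side, AAATCA was 7.33 points higher at summits, and 0.250 points relative to gene-body summits. Without peaks overlapping a stronger one, added after seeing the data, 30.3% were clustered and signal was -5.18 points from gene-body summits, which no longer passed. The cause of these changes was not tested. Of 100 gene-list counts, 78 stayed within 1.5 times.

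No paired analysis was possible because both replicates belong to 1 group. The 2 replicates and unknown read depth limit precision, and no site's absence from a list shows that it was unbound.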
